A study of Rattus norvegicus with 125 samples.

Results

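Named genes of the cell cycle, 42 in all, were followed in cortical collecting ducts of water-loaded rats and along the whole renal tubule. They were chosen by name, with earlier results of these data known, and split by known role into 20 replication genes and 22 mitosis genes. All 42 were found among the 17144 symbols of both expression tables used here. The replication genes act before and during DNA synthesis, and the mitosis genes in chromosome condensation, spindle assembly and cell division.

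All material came from male Sprague-Dawley rats, from whose collagenase-digested kidneys single tubules or glomeruli were dissected by hand and sequenced with paired 50 nt reads. In the first experiment, 5-week-old rats all received ddAVP (desmopressin, a synthetic agonist of the vasopressin V2 receptor) at 5 ng/hr from minipumps. The water-loaded rats (n = 4) ate gelled food that carried 50 mL of water per day, against 25 mL per day for the control rats (n = 4), and each library is the cortical collecting duct of its own rat. The water load lasted 4 days. In the second experiment, 5 libraries of glomeruli and 4 to 11 of each of 14 tubule segments were made, the segments from rats of 200 to 250 g with no treatment named in the labels. The segments were S1, S2 and S3 of the proximal tubule (n = 7 each), the short-loop descending thin limb (SDL, n = 10), the long-loop descending thin limb in the outer (LDLOM, n = 9) and inner medulla (LDLIM, n = 4), the thin ascending limb (tAL, n = 7), the thick ascending limb of the medulla (mTAL, n = 7) and of the cortex (cTAL, n = 7), the distal convolution (DCT, n = 8), the connecting tubule (CNT, n = 6) and the cortical, outer medullary and inner medullary collecting duct (CCD, n = 11, OMCD, n = 7, and IMCD, n = 8). The labels do not say whether the replicates of a segment or of the glomerulus came from different rats, so p-values there speak only of how these libraries vary, which may be technical variation.

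Cells that enter the cycle first switch on genes for DNA synthesis, which are held down at rest by the retinoblastoma proteins and released through E2F transcription factors. Genes for mitosis follow later, under the B-MYB and FOXM1 factors that bind through the MuvB complex at a promoter element called the cell cycle genes homology region. Cells of the adult tubule divide rarely. The collecting duct is made of principal cells, which take up water, and intercalated cells, which transport acid and base. The water-load experiment models vasopressin escape, the state in which the kidney excretes water although vasopressin stays high, and in which the principal cell water channel aquaporin-2 is known to fall.

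RefSeq promoter sequences of the GRCr8 assembly, from 250 bases before to 50 bases after the annotated start, were at hand for 33 of the 42 genes (15 replication and 18 mitosis genes). They were searched on both strands for E2F words (TTTCCCGC, TTTCGCGC, TTTGCCGC or TTTGGCGC), for the cell cycle genes homology region (TTTGAA) and for the CCAAT box (CCAAT), a binding site of the NF-Y factor. An E2F word was present in 7 of 15 replication promoters (46.7%), 1 of 18 mitosis promoters (5.56%, Cdk1) and 2.25% of all 27457 promoters. The homology region was present in 2 of 15 replication promoters (13.3%), 12 of 18 mitosis promoters (66.7%) and 18.1% of all promoters. The CCAAT box was present in 73.3% of replication, 72.2% of mitosis and 37.7% of all promoters, and CCAAT box and homology region together in 6.67%, 55.6% and 7.25%. These matches are descriptions of letters, not of bound sites, and the shares were not tested against each other.

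The sequences below are the 250 bases before the start of the 3 genes per role that had the smallest p under water load among those with the element of their role wholly before the start. They are Mcm5 (GRCr8 chr19:13488563-13488812, plus strand), Mcm6 (chr13:42404353-42404602, minus strand), Mcm7 (chr12:22163179-22163428, minus strand), Knstrn (chr3:126254446-126254695, plus strand), Cdca8 (chr5:142483200-142483449, minus strand) and Prc1 (chr1:143659231-143659480, plus strand). Each is written 5′ to 3′ on the strand of its gene, and capitals mark matches of any of the 3 elements on either strand, run together where they overlap.
Mcm5: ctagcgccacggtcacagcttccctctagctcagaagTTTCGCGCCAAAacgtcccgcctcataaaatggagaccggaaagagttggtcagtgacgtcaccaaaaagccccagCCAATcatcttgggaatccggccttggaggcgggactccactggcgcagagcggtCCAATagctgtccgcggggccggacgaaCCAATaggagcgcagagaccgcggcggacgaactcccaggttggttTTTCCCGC
Mcm6: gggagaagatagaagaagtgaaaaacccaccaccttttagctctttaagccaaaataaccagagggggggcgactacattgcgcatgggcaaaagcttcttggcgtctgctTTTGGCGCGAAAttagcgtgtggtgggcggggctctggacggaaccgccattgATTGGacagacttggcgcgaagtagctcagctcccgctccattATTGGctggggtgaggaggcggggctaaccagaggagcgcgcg
Mcm7: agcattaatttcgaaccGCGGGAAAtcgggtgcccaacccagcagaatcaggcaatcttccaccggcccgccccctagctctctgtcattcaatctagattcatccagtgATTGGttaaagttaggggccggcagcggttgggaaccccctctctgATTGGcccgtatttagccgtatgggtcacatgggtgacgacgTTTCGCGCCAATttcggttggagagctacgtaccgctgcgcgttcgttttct
Knstrn: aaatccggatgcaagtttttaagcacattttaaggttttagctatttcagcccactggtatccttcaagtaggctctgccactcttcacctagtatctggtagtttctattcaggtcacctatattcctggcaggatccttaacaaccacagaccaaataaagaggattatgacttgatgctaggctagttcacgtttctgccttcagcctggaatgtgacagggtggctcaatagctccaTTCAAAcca
Cdca8: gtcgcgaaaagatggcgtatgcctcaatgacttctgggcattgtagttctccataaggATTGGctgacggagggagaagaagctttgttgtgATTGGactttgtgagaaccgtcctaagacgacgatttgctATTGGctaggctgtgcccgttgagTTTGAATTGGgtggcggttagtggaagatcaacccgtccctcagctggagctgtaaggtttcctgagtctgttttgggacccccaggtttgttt
Prc1: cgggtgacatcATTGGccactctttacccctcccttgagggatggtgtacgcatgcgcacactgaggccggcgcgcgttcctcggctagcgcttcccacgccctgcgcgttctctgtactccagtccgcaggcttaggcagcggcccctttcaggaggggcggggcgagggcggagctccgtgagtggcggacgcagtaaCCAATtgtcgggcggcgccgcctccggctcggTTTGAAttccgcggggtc
In the promoters of the helicase genes Mcm5, Mcm6 and Mcm7, each of the 3 has at least 2 matches of E2F words and 2 CCAAT boxes. The 2 E2F matches of Mcm6 overlap in 1 stretch read on opposite strands, as do 2 of those of Mcm5. The homology region is in none of the 3. The Cdca8 promoter has 4 CCAAT boxes, 1 of which overlaps its homology region by 1 base, and the Prc1 promoter has its homology region 18 to 13 bases before the start. The Knstrn promoter has a homology region on the opposite strand, 9 to 4 bases before the start, and no match of the others in these bases.

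**Figure D1:**
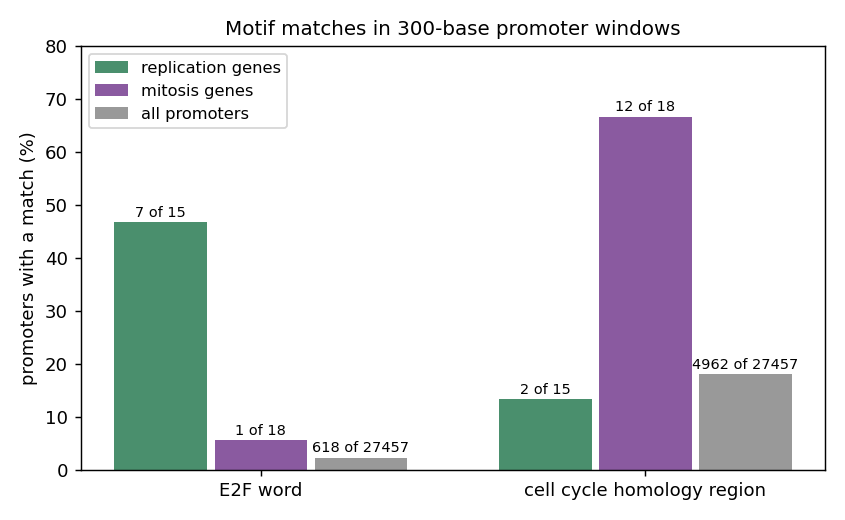
Share of promoters (%) with at least 1 match of an E2F word or of the cell cycle genes homology region, for replication genes, mitosis genes and all promoters of the RefSeq table; numbers above the bars give promoters with a match of those present. E2F words stand out among replication genes (7 of 15) and the homology region among mitosis genes (12 of 18).

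Levels are in RPKM, that is, reads divided by transcript length and by the reads of the library. Libraries had 8213 to 8769 genes at 1 RPKM or more in water-loaded rats and 7661 to 8539 in control rats. The files hold no read counts, but the ratios of low values put relative depth within a 1.88-fold span, lowest in water-loaded rat 4 and highest in control rat 2. Aqp2, the gene of aquaporin-2, was at 5333, 8131, 6013 and 10658 RPKM in water-loaded rats, against 11019, 11333, 17341 and 18342 in controls. All 4 water-loaded values lay below all 4 control values (log2 change -0.96; two-sided exact permutation p = 0.0286, the smallest that 70 splits allow). Principal and intercalated cell markers were present in every library. Proximal tubule markers summed to 35.0 to 64.6 RPKM in water-loaded and 52.9 to 1341 RPKM in control rats, where control rat 1 held the 1341. Tubule libraries ranged from 1438 to 8574 genes at 1 RPKM and glomeruli from 8818 to 9483.

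Under water load, nearly all of the cell cycle genes had a higher mean, and 6 of them passed the test. Of the 42 genes, 40 had a mean log2(RPKM + 1) above that of controls (18 of 20 replication and 22 of 22 mitosis genes), against 52.5% of the 12565 genes with a value above 0 in at least 1 library. Every water-loaded library was above every control library for 22 of the 42 (12 replication and 10 mitosis genes), against 2.16% of those genes. The median difference was 1.35 for replication and 1.74 for mitosis genes on the log2 scale, against 0.0084 for all genes. As the members were chosen with earlier results of these data known, these shares are no independent test of the list.

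Of the 42, 38 reached the filter of 1 RPKM in 4 libraries and were tested with limma. At a Benjamini-Hochberg adjusted p under 0.05, 6 rose and 0 fell, where 0.0942% of all 8492 tested genes rose, 0.0589% fell and 0.153% did either. The rising genes were Asf1b, Ube2t, E2f1 and Cdc45 of replication and Ube2c and Knstrn of mitosis. They make up 6 of the 8 genes that rose in the whole table, a count limited likewise by how the members were chosen. At an unadjusted p under 0.05, 32 of the 38 were higher and 0 lower, beside 353 higher of 632 over all genes. For 6 of the 38 (E2f1, Cdc45, Ube2t, Rrm2, Kif2c and Tpx2) every control was under 1 RPKM, so they entered the test only through their water-loaded values. This held for 17 of all 8492 tested genes. The calls of E2f1, Cdc45 and Ube2t thus rest on the same high values that took these genes through the filter. In these bulk samples, more cells of a kind and more RNA per cell cannot be told apart.

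E2f1, the transcription factor that opens the replication programme, was at 3.67, 3.53, 3.43 and 5.44 RPKM in water-loaded rats and at 0.0665, 0.0133, 0.0338 and 0.137 RPKM in controls. Every control value was near the bottom of the scale and every water-loaded value above 3 RPKM, and the log2 change was 2.22 ± 0.40 (SE; limma adjusted p = 0.0455). Among the cyclins that start the cycle the picture was mixed. Ccnd1, cyclin D1, was at 29.8, 19.6, 14.3 and 28.0 RPKM in water-loaded rats, against 13.2, 6.56, 10.2 and 12.1 RPKM in controls. The groups of Ccnd1 did not overlap, but the change of 1.04 ± 0.38 did not pass (adjusted p = 0.545). Ccne1, a cyclin E that drives entry into DNA synthesis, was at 1.43 to 8.22 RPKM in water-loaded rats and 0.0274 to 1.96 RPKM in controls, with overlap. Ccne2, the other cyclin E, was not tested and was at 0.150 to 1.18 RPKM in water-loaded rats, against 0.4999 to 1.75 RPKM in controls. Ccne2 and Gins2 were the 2 members whose mean was lower with water load.

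The replicative helicase is a ring of the Mcm2 to Mcm7 proteins that Cdc45 and the GINS complex switch on. Cdc45 was at 5.39, 8.30, 3.68 and 5.11 RPKM in water-loaded rats and at 0.0076, 0.0063, 0.759 and 0.318 RPKM in controls. No control reached 1 RPKM, and the gene rose by 2.37 ± 0.43 on the log2 scale (adjusted p = 0.0494). Mcm5 was at 8.94, 8.73, 4.11 and 9.45 RPKM in water-loaded rats, against 0.0611, 0.0348, 2.06 and 1.59 RPKM in controls. Mcm3 was at 16.6, 11.0, 7.12 and 11.1 RPKM, against 0.134, 4.79, 1.46 and 0.444 RPKM. In neither gene did the groups overlap, yet with changes of 2.303 ± 0.51 and 2.45 ± 0.54 the adjusted p-values were 0.146 for Mcm5 and 0.147 for Mcm3. Mcm4, Mcm6 and Mcm7 likewise had every water-loaded above every control library, with changes of 1.38, 1.82 and 1.30, and Mcm2 overlapped with a change of 1.12. None of these passed. Gins1, a GINS subunit that was not tested, exceeded 1 RPKM in 2 water-loaded rats and 1 control. Gins2, another subunit, was at 5.48, 8.67, 18.8 and 12.1 RPKM in water-loaded rats, against 12.8, 11.0, 36.6 and 16.9 RPKM in controls, a change of -0.69 ± 0.46 that did not pass (adjusted p = 0.801).

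Among genes of nucleotide supply, fork and chromatin assembly, Asf1b gave the smallest p of the 42. Asf1b, a chaperone that hands histones to new chromatin, was at 9.67, 19.2, 10.2 and 21.7 RPKM in water-loaded rats and at 0.0266, 0.0407, 2.34 and 0.291 RPKM in controls. The lowest water-loaded value was well above the highest control value, and the gene rose by 3.38 ± 0.51 (adjusted p = 0.0287). Ube2t, the ubiquitin-conjugating enzyme of the Fanconi anaemia repair pathway, was at 3.31, 4.30, 16.4 and 6.04 RPKM in water-loaded rats, against 0.0284, 0.0237, 0.0302 and 0.0306 RPKM in controls. It rose by 2.82 ± 0.49 (adjusted p = 0.0455). After scaling by relative depth the 4 control values of Ube2t were equal within rounding, near the bottom of the scale. The water-loaded values were 117, 134.25, 566 and 135.5 times that value. These are multiples of a floor value and no measured fold change. Tk1, thymidine kinase, was at 18.0, 13.01, 28.3 and 34.4 RPKM in water-loaded rats and 7.93, 1.49, 6.25 and 7.36 RPKM in controls, without overlap (1.92 ± 0.49; adjusted p = 0.205). Rrm2, the cycle-dependent subunit of ribonucleotide reductase, was at 2.12 to 2.84 RPKM, against 0.0539 to 0.889 RPKM in controls, also without overlap. Its partner Rrm1 overlapped, as did thymidylate synthase Tyms (48.7 to 100.02 RPKM in water-loaded rats, 10.8 to 82.0 RPKM in controls). Pcna, the sliding clamp and by level the highest of the 42, was at 211, 312, 438 and 775 RPKM in water-loaded rats, against 150, 96.9, 467 and 243 RPKM in controls. Control rats 3 and 4 lay within the water-loaded range of Pcna, and its change of 0.94 ± 0.47 did not pass (adjusted p = 0.703). The summed level of the 20 replication genes overlapped, at 477 to 1082 RPKM in water-loaded and 162 to 654 RPKM in control rats. Without Pcna and Ccnd1 the sums were 228 to 278 RPKM in water-loaded and 59.0 to 177 RPKM in control rats. No other subset of the replication genes was summed, so this separation holds for that choice alone.

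**Figure D2:**
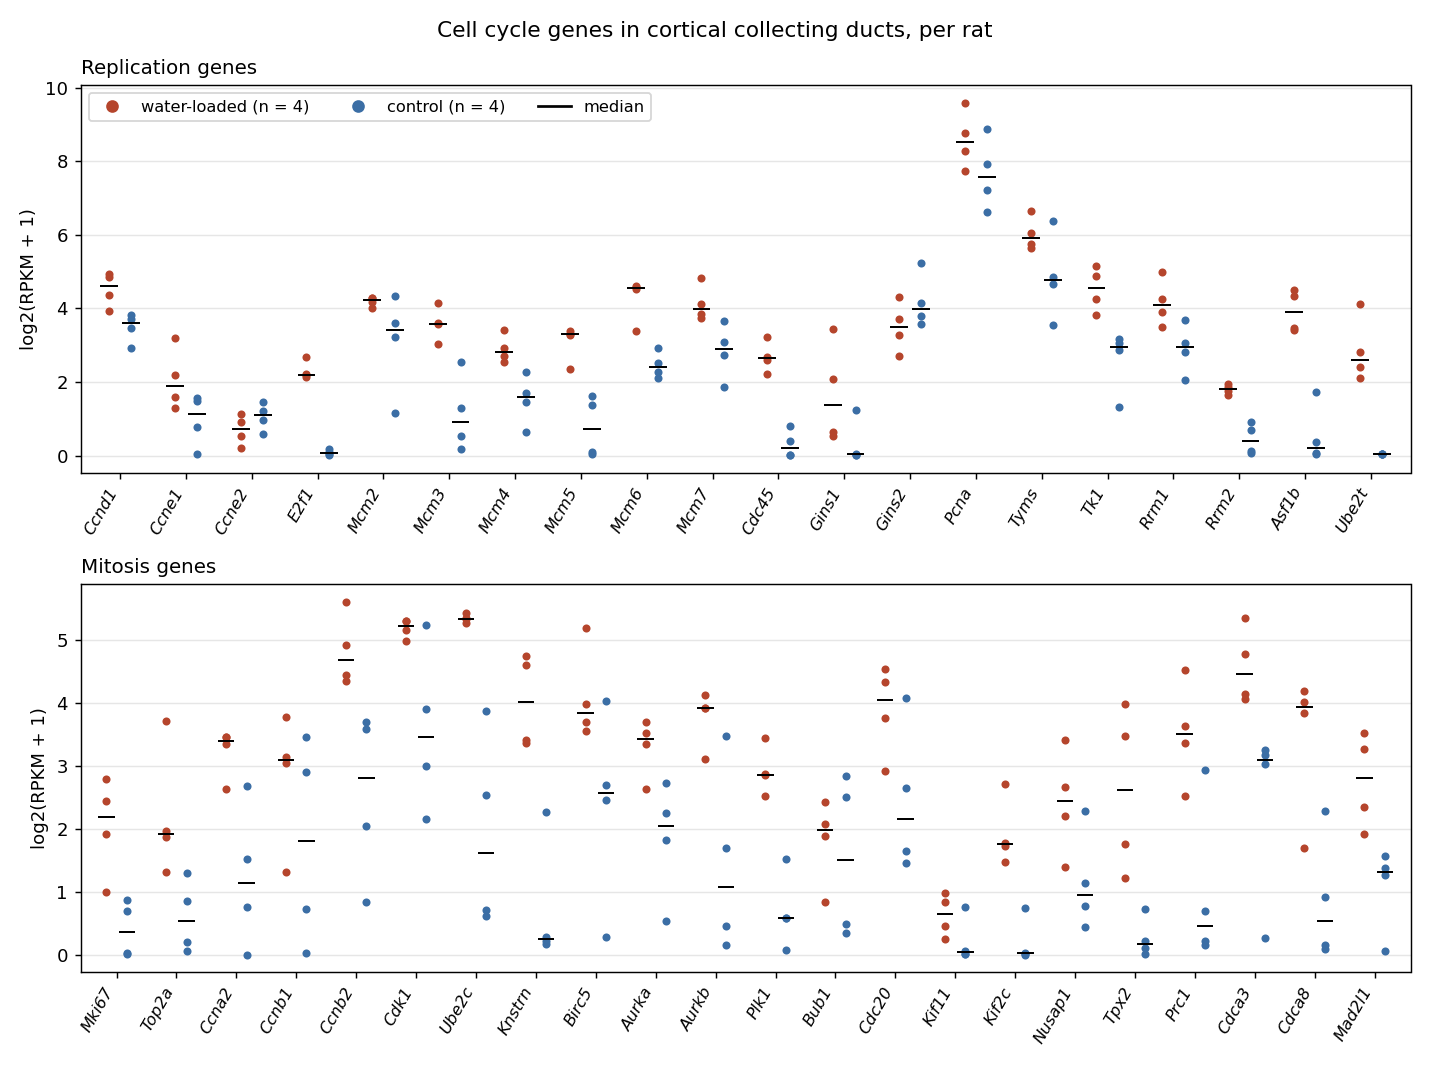
Level of each of the 42 genes in each library, as log2(RPKM + 1), in 4 water-loaded rats (red, left of each tick) and 4 control rats (blue, right), with medians as black bars; upper panel replication genes, lower panel mitosis genes. Water-loaded points lie above all control points in 12 replication and 10 mitosis genes, and only Ccne2 and Gins2 have a lower mean with water load.

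Ube2c had the largest log2 change of the mitosis genes. Ube2c, the ubiquitin-conjugating enzyme of the anaphase-promoting complex, was at 42.1, 39.6, 39.7 and 37.9 RPKM in water-loaded rats, against 13.7, 0.531, 4.81 and 0.635 RPKM in controls. The water-loaded rats were within a narrow band while controls were spread, and the change was 3.42 ± 0.61 (adjusted p = 0.0455). Knstrn, a kinetochore protein that helps chromosomes align, was at 25.9, 9.71, 23.4 and 9.27 RPKM in water-loaded rats and at 0.126, 0.218, 3.83 and 0.156 RPKM in controls. Only control rat 3 exceeded 1 RPKM, and Knstrn rose by 3.30 ± 0.57 (adjusted p = 0.0455).

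The other 18 mitosis genes tested did not pass. Ccnb2, a cyclin B that activates Cdk1, was at 47.9, 29.4, 20.8 and 19.4 RPKM in water-loaded rats, against 11.97, 11.0, 3.13 and 0.780 RPKM in controls, without overlap (2.29 ± 0.59; adjusted p = 0.214). Cdk1, the kinase of mitotic entry, was at 30.9 to 38.7 RPKM in water-loaded rats and 3.46 to 37.0 RPKM in controls, where control rat 2 came into the water-loaded range. Ccna2 (5.21 to 10.1 RPKM, against 0 to 5.44 RPKM in controls) and Ccnb1 (1.4998 to 12.7 RPKM, against 0.0204 to 9.97 RPKM) overlapped too. Of the kinases, Plk1 was at 4.77, 9.94, 6.22 and 6.29 RPKM in water-loaded rats, against 0.501, 0.0482, 0.497 and 1.87 RPKM in controls. Polo-like kinase Plk1 was thus without overlap and closest to the threshold (2.24 ± 0.46; adjusted p = 0.0946). Aurka, the spindle pole kinase, overlapped (5.18 to 12.01 RPKM, against 0.445 to 5.64 RPKM), but Tpx2, which activates it, did not overlap (1.33 to 14.8 RPKM, against 0.0047 to 0.659 RPKM).

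The chromosomal passenger complex corrects the attachment of chromosomes to the spindle. Of this complex, 3 members are among the 42. Each had a higher mean in water-loaded rats, as did all 22 mitosis genes, and none of the 3 passed. Aurkb, the kinase of the complex, was at 14.2, 7.69, 16.6 and 14.1 RPKM in water-loaded rats, against 0.117, 10.1, 2.23 and 0.365 RPKM in controls. Cdca8, borealin, was at 17.2, 2.24, 13.4 and 15.2 RPKM, against 0.0605, 0.111, 0.891 and 3.88 RPKM. Birc5, survivin, was at 35.6, 14.9, 12.01 and 10.8 RPKM, against 15.4, 0.221, 4.48 and 5.48 RPKM. In each of the 3 genes 1 library crossed over: control rat 2 in Aurkb, water-loaded rat 2 in Cdca8 and control rat 1 in Birc5. The spindle checkpoint gene Bub1 had the smallest difference of the mitosis genes, at 3.21, 4.38, 2.70 and 0.792 RPKM in water-loaded rats and 4.70, 6.18, 0.405 and 0.271 RPKM in controls (0.26 ± 0.62; adjusted p = 0.963). Its direction turned to -0.09 without control rat 3 and -0.14 without control rat 4. Mad2l1, another checkpoint gene, did not overlap (2.78 to 10.5 RPKM in water-loaded rats, 0.0412 to 1.97 RPKM in controls).

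The proliferation marker Mki67 was at 5.95, 4.46, 2.77 and 0.998 RPKM in water-loaded rats, against 0.827, 0.0160, 0.624 and 0.0031 RPKM in controls. These groups did not overlap, but with 3 libraries at 1 RPKM the gene missed the filter, as did the spindle motor Kif11, which was under 1 RPKM in all 8 libraries. Top2a, the topoisomerase that untangles sister chromosomes, was at 1.48 to 12.2 RPKM, against 0.0426 to 1.47 RPKM in controls. Kif2c, a kinesin that shortens microtubules, was at 1.79 to 5.56 RPKM, against 0 to 0.669 RPKM, and the mitotic entry factor Cdca3 at 15.7 to 40.0 RPKM, against 0.197 to 8.56 RPKM. Top2a, Kif2c and Cdca3 were without overlap, while Cdc20, Nusap1 and Prc1, of anaphase onset, spindle assembly and the spindle midzone, overlapped, with changes of 1.43, 1.27 and 2.52.

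**Figure D3:**
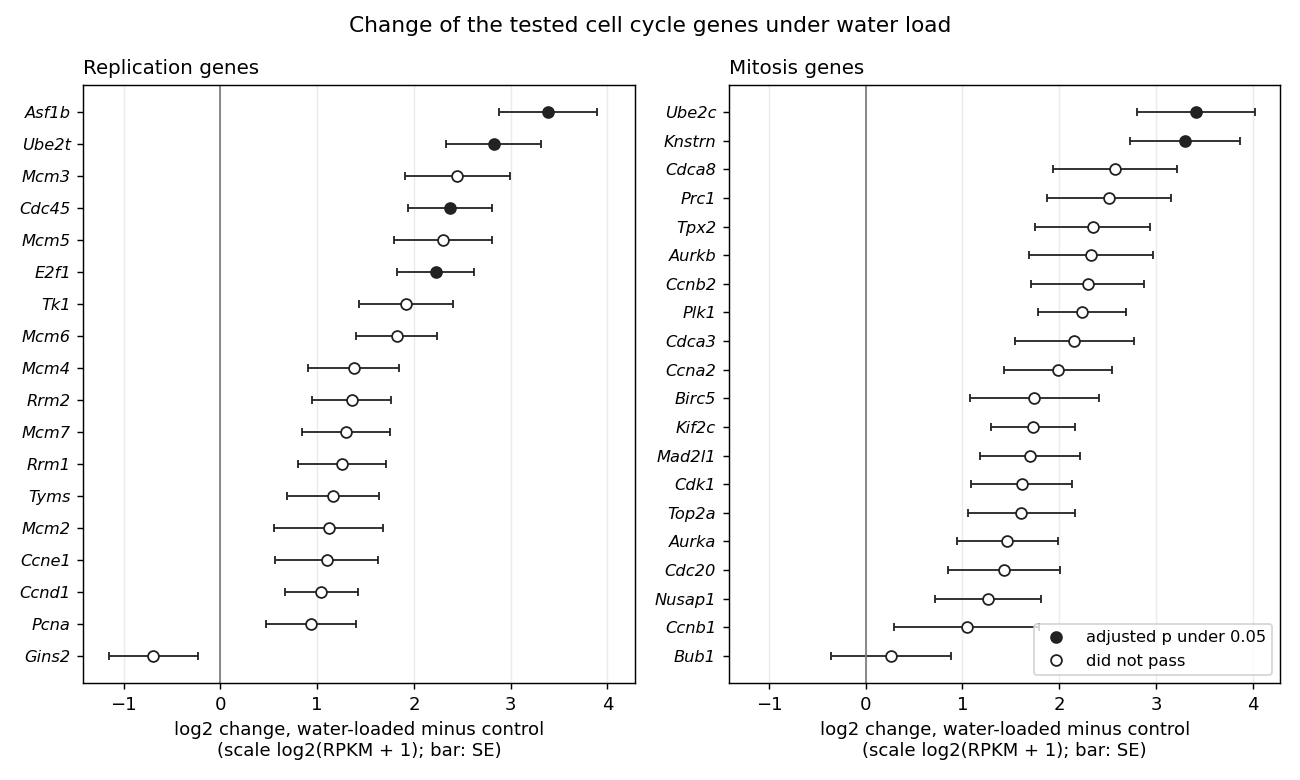
log2 change (water-loaded minus control, on log2(RPKM + 1), with SE bars) of the 18 replication and 20 mitosis genes that were tested; filled points passed at an adjusted p under 0.05 and open points did not. Of the 38 points 37 lie above 0, with Gins2 at -0.69.

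Counted per rat, the mitosis and the replication genes each separated the groups. As the members were chosen with earlier results of these data known, this separation is no independent test of them. Over all genes the counts overlapped, at 8213 to 8769 in water-loaded and 7661 to 8539 in control rats. Of the 22 mitosis genes, 19 to 21 reached 1 RPKM in water-loaded rats and 7 to 11 in controls. Their summed level was 220 to 400 RPKM in water-loaded rats, against 24.3 to 120 RPKM in controls, with the highest sum in water-loaded rat 1 and the lowest in control rat 4. Of the 20 replication genes, 18 to 19 reached 1 RPKM in water-loaded rats and 11 to 16 in controls, where control rat 3 had the 16.

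The number of calls rested on the settings. limma called 7 of the 42 with the rat number as a block, where Ccnb2 passed too (adjusted p = 0.0478), 9 with array quality weights, 5 with all transcripts kept, 3 after quantile normalization, and 0 with a pseudocount of 0.1 or without the filter. Leaving out any 1 water-loaded rat gave 0 calls, and 6 of the 38 genes then missed the filter, E2f1, Cdc45 and Ube2t among them. Without control rat 1, 2, 3 or 4 there were 2, 4, 2 and 0 calls. Of the 4 calls without control rat 2, only 1 was among the 6 reported, and 3 were of other members. At an unadjusted p under 0.05, 21 to 26 of the 32 genes tested were higher without a water-loaded rat, and 30 to 33 of 38 without a control rat. They were 29 of 42 without the filter and 31 to 35 of 38 with the other pseudocount, quantile normalization, block or weights, and 0 were lower in each of these fits.

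Signals of other cells were read beside these values. Of 13 leukocyte markers, 9 were tested and 0 passed (0 also at an unadjusted p under 0.05), and their sum was 99.3 to 575 RPKM in water-loaded rats, against 107 to 709 RPKM in controls. Of the 9 tested, 6 had a change above 0 (median 0.14, from -0.33 to 1.54). Ptprc, the pan-leukocyte gene, was at 0 to 1.03 RPKM in water-loaded rats and 0 to 0.0864 RPKM in controls. The T cell gene Cd3d was listed at 0 in all 8 libraries. Neither Ptprc nor Cd3d reached the filter, and other markers of the list made up nearly all of the sum. Of 11 endothelial markers, 10 were tested and 0 passed (1 higher at an unadjusted p under 0.05), with sums of 58.2 to 372 RPKM in water-loaded rats and 51.1 to 425 RPKM in controls. The principal cell marker sum, most of it Aqp2, was 7721 to 14680 RPKM in water-loaded rats, against 14459 to 24159 RPKM in controls, and that of intercalated cells 3229 to 4357 RPKM, against 2746 to 3618 RPKM. Of the 9 principal and 9 intercalated cell markers 0 passed (3 lower and 2 higher at an unadjusted p under 0.05). Of 5 proximal tubule markers 0 passed (3 lower at an unadjusted p under 0.05), and of 3 markers of the thick ascending limb and DCT 0 passed (1 lower). The part of cell composition in the cell cycle values was not tested.

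Further genes of the same pathway gave few calls. They were taken from lists of known function, also chosen with earlier results of these data known. Of 32 tested genes of replication outside the 42, 0 passed, 11 were higher and 0 lower at an unadjusted p under 0.05, and 30 had a change above 0 (median 0.73). Of 39 tested genes of the mitosis list, 1 rose: Tubb5, a beta tubulin (limma log2 change 1.91 ± 0.27, adjusted p = 0.0208). Tubb5 was at 282, 266, 175 and 202 RPKM in water-loaded rats and 64.3, 73.3, 56.7 and 47.4 RPKM in controls. A further 18 of that list were higher at an unadjusted p under 0.05 and 0 lower, and 38 of the 39 had a change above 0 (median 1.20). Of 14 cyclins, kinases, E2F and RB genes 0 passed and 8 were above 0 (median 0.14), 1 higher at an unadjusted p under 0.05. Of 16 cell cycle inhibitors and p53 targets 0 passed, 5 were above 0 (median -0.19) and 2 were lower at an unadjusted p under 0.05. Of 7 genes of homologous recombination and checkpoints 0 passed, 2 were higher at an unadjusted p under 0.05 and 7 of 7 were above 0 (median 0.89). The median over all tested genes was 0.017.

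Along the tubule of the other experiment, most of the 42 genes were at or near the bottom of the scale. The median over all tubule libraries was under 1 RPKM for 37 of the 42 (15 replication and 22 mitosis genes) and 0 for 15, and 16 had no segment with a median of 1 RPKM. The exceptions were Pcna (33.7 RPKM), Ccnd1 (23.9 RPKM), Tk1 (3.47 RPKM), Rrm1 (2.27 RPKM) and Mcm7 (1.51 RPKM), all given as that median and all replication genes. limma's F test over the 14 segments found 6 of the 42 to differ, 5 replication genes and Ube2c, against 41.5% of all 11078 tested genes. With a pseudocount of 0.1 the count was 12, and without LDLIM replicate 2 or 3 it was 3.

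**Figure D4:**
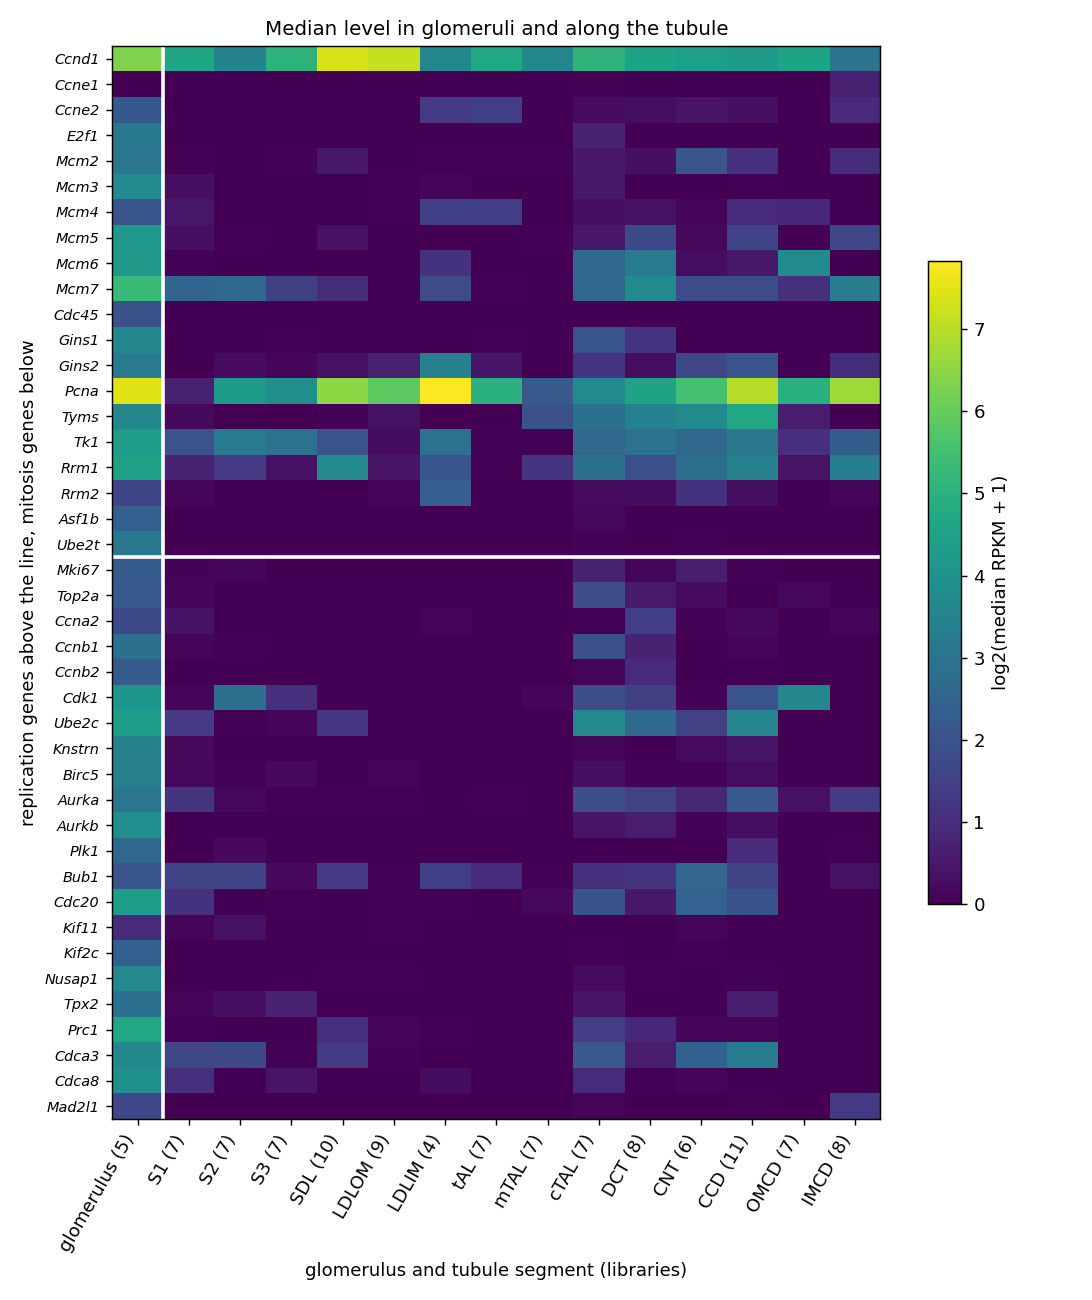
Median level of each gene, as log2(median RPKM + 1) by colour, in glomeruli (left column) and 14 tubule segments, with the number of libraries in parentheses; replication genes stand above the white line and mitosis genes below it. Ccnd1 and Pcna are bright in most columns, Tyms from mTAL to CCD, and the glomerulus column is brighter than most segments in nearly every gene.

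Tyms, thymidylate synthase, had the smallest p of the F test (adjusted p = 4.8e-07) and a distal pattern. Its median was 24.6 RPKM in CCD (range 0.485 to 37.2), 12.5 RPKM in CNT, 9.95 RPKM in DCT (range 0.893 to 49.6), 6.22 RPKM in cTAL and 2.82 RPKM in mTAL, and 0.51 RPKM or less in each of the 9 other segments. Against the other 13 segments it was higher in CCD (log2 difference 2.42 ± 0.49; adjusted p = 0.00014), where 8.8% of all genes were, and in DCT (2.22 ± 0.56; adjusted p = 0.0055), where 4.22% were, and leaving out any 1 library of CCD or DCT ended neither call. In neighbouring segments of this order the ranges overlapped, as in CNT, at 0.72 to 38.4 RPKM. The call in DCT ended, at 1.68, in a second deposited table made without the polyadenylation-site (PA-seq) data.

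Ccnd1 had a different pattern, highest in the descending thin limbs of the outer medulla. Its median was 164 RPKM in SDL (range 35.8 to 560) and 139 RPKM in LDLOM (range 5.38 to 334), against 6.97 to 33.1 RPKM in the other 12 segments. It was higher in SDL (3.15 ± 0.67; adjusted p = 0.00064) and in LDLOM (2.61 ± 0.70; adjusted p = 0.0175) than in the other 13 segments each, where 2.81% of all genes were higher in SDL and 0.912% in LDLOM. Both calls were kept when any 1 library of SDL or LDLOM was left out. Markers of other cells were high in SDL: fibroblast and pericyte markers summed to 0.0140 to 1343 RPKM (median 87.6), against medians of 0.0433 to 20.9 RPKM in the other segments, and endothelial markers to 7.24 to 1449 RPKM (median 390, below the 527 RPKM of tAL). In LDLOM those medians were 0.316 and 136 RPKM. Their part in the Ccnd1 values was not tested. The ranges still overlapped with those of other segments, since S3 reached 287 RPKM and IMCD 277 RPKM in 1 library each.

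The other calls of a segment against the other 13 rested on few libraries. In all, limma called 9 gene-by-segment differences higher and 0 lower among 588, where 41 were higher and 11 lower at an unadjusted p under 0.05. Over all genes 3.99% of gene-by-segment pairs were higher and 1.19% lower. Beside those of Tyms and Ccnd1 they were Ccne1 in IMCD (1.20; adjusted p = 0.0040), Mad2l1 in IMCD (1.32; adjusted p = 0.042), Ccna2 in DCT (1.096; adjusted p = 0.042), Ccne2 in tAL (1.03; adjusted p = 0.046) and Ccnb1 in CCD (1.15; adjusted p = 0.046). Of all genes, 10.6% were higher in IMCD and 4.86% in tAL. With a pseudocount of 0.1 the count was 14. Each of these 5 ended without 1 library of its segment. That of Ccne1 ended without IMCD replicate 7 alone, where it was at 54.7 RPKM, against 0 to 5.63 RPKM in the other 7 libraries. The same library had Mad2l1 at 221 RPKM, against 0 to 2.25 RPKM in the others, and that call ended without replicate 1, 5, 6, 7 or 8. Those of Ccna2 ended without DCT replicate 1, 2, 3 or 8, of Ccne2 without tAL replicate 2, 3, 4 or 5, and of Ccnb1 without CCD replicate 2, 6, 7, 8 or 11. Ccne1 was at 0 in 4 of 8 IMCD libraries and Ccnb1 in 5 of 11 CCD libraries.

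Gins2, Ube2c and Pcna passed the F test (adjusted p = 0.0175, 0.041 and 0.047) with no segment called. Gins2 was highest in LDLIM, at a median of 10.1 RPKM, and then in CCD, at 3.09 RPKM. Ube2c was highest in cTAL (median 11.99 RPKM, up to 30.4) and CCD (median 10.7 RPKM, up to 102). Pcna was highest in LDLIM, at 144 to 457 RPKM, with CCD (median 125 RPKM) and IMCD (median 104 RPKM) next, and lowest in S1 (median 0.64 RPKM).

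Detection of mitosis genes varied widely between libraries of 1 segment. Per segment, the median number of the 22 at 1 RPKM was 10 in cTAL, 8 in CCD and DCT, 5 in S1, S2 and S3, 4.5 in CNT, 4 in SDL, 3.5 in IMCD, 2 in LDLIM, LDLOM, mTAL and OMCD, and 1 in tAL. In 13 tubule libraries 11 or more were at 1 RPKM, while 13 others held 0. CCD replicate 6 had 20 of the 22, cTAL replicate 7 had 18 and LDLOM replicate 7 had 17. The 13 libraries had 5896 or more detected genes (median 7778), against a median of 4184.5 in the others, of which 21 had as many as the lowest of the 13. Leukocyte markers had the highest median sums in S2 (1340 RPKM), cTAL (976 RPKM), mTAL (954 RPKM), S1 (747 RPKM), DCT (746 RPKM) and SDL (381 RPKM), and medians of 4.39 RPKM (OMCD) to 207 RPKM (S3) in the other segments. The median sum was 93.0 RPKM in CCD. The part of detection and of leukocyte RNA in these counts was not tested.

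**Figure D5:**
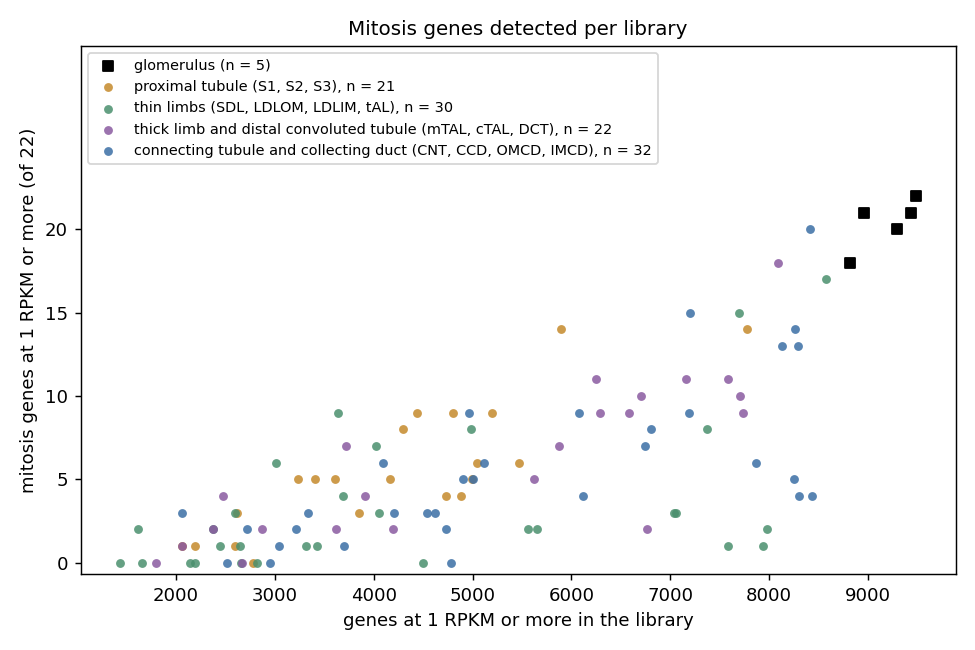
Number of the 22 mitosis genes at 1 RPKM or more (y axis) against the number of all genes at 1 RPKM or more (x axis) in each of 5 glomerulus (black squares) and each tubule library (points coloured by tubule region). Glomeruli sit at the upper right with 18 to 22 mitosis genes, and tubule libraries run from 0 to 20.

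In glomeruli, the filtering tufts of capillaries, mesangial cells and podocytes, most of the 42 genes were higher than along the tubule. Of the 42, 36 were called higher and 0 lower (17 replication and 19 mitosis genes; 40 higher and 0 lower at an unadjusted p under 0.05), against 37.7% higher and 1.19% lower of all 11456 tested genes. The median log2 difference from the mean of the 14 segments was 2.23 for replication and 2.12 for mitosis genes, against 1.32 for all genes. Prc1, the midzone bundling protein, was at 11.0, 24.7 and 32.7 RPKM as lowest, median and highest of 5 glomeruli (3.69 ± 0.61 on the log2 scale). Nusap1 was at 2.41 to 13.6 RPKM (2.93 ± 0.40) and Aurkb at 4.77 to 19.3 RPKM (3.17 ± 0.35). Ube2t was at 2.05 to 12.7 RPKM (2.56 ± 0.43), whereas its median was 0 in 11 of the 14 segments. Ccnd1 (60.1 to 90.7 RPKM), Ccne1, Rrm2, Aurka, Bub1 and Kif11 were not called.

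Glomeruli also stood apart in detection and in cell types. Every glomerulus library had more genes at 1 RPKM than any tubule library. With the number of detected genes as a covariate 18 of the 42 were called, and after quantile normalization 5, with 10 of the 42 then below 0. Podocyte markers summed to 1340 to 4266 RPKM, endothelial markers to 1487 to 2251 RPKM and leukocyte markers to 764 to 1627 RPKM in glomeruli. The part of these cells in the cell cycle values was not tested.

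The other lists of the pathway were read in the same way. Between segments, where limma's F test called 41.5% of all genes, it called 10 of 37 other replication genes, 11 of 53 other mitosis genes, 7 of 19 cyclins, kinases, E2F and RB genes, and 0 of 14 genes of homologous recombination and checkpoints (0 also at an unadjusted p under 0.05). In glomeruli, where 37.7% of all genes were higher, 21 of 39, 35 of 56, 6 of 21 and 6 of 15 genes of these lists were higher and 0 lower. The largest glomerulus difference among the cyclins and their partners was that of Ccnd2, cyclin D2, at 6.31 to 37.3 RPKM (4.01 on the log2 scale).

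The cortical collecting duct was sampled in both experiments, but the values come from separate tables, so levels are only set side by side. The median of the water-loaded rats was above that of their controls in 40 of the 42 genes, and above that of the 11 CCD libraries of the segment experiment in all 42. The median of the controls, which carried ddAVP too, was above that of those CCD libraries in 32 of the 42. Of all 12988 genes in both tables with a value above 0 in any of these libraries, 73.6% had the water-loaded median and 70.2% the control median above that of the CCD libraries, and 47.4% had the water-loaded median above the control one. The median number of genes at 1 RPKM was 8309.5 in water-loaded rats, 8224.5 in controls and 6749 in the CCD libraries, and its part in these counts was not tested. Ube2c had a median of 39.7 RPKM in water-loaded rats, 2.72 RPKM in their controls and 10.7 RPKM in the CCD libraries. Knstrn had medians of 16.5, 0.187 and 0.394 RPKM in the same order of groups.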

How the data were processed

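Gene expression was measured by RNA-seq of microdissected rat tubules and glomeruli. The deposited values are RPKM per transcript, made by the authors. Per the submitters' processing notes the build was rn5, and the tools listed are HOMER, SAMtools, STAR 2.3.0-r192 and Trimmomatic 0.32. The files hold no read counts, so depth is known only relative to other libraries and no counting interval is given. The 7 PA-seq samples were not analysed here, and 0 columns of sample values were left unused.

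The transcript with the highest mean stood for each symbol. Values were taken as log2(RPKM + 1), which understates the change of low genes, and genes with 1 RPKM or more in at least 4 libraries were tested with limma 3.58.1 (R 4.3.3), with a trended variance and Benjamini-Hochberg adjustment over all genes tested. Water-load calls needed an adjusted p under 0.05, and segment and glomerulus calls also an absolute log2 difference of 1 or more. Segments were compared by an F test and each with the mean of the other 13, and glomeruli with the mean of the 14. Aqp2 had a two-sided exact permutation test. Tables and figures used Python 3.11.15, numpy 2.4.6, pandas 2.3.3, scipy 1.17.1 and matplotlib 3.10.9, and the tests were tried on simulated data.

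The members and lists were chosen with earlier results of these data known. Named besides the members were up to 5 called genes with the smallest p per direction and list, Aqp2 and marker genes. Cdkn2b, Btg2, Gadd45g and Cdkn1c are named from the called genes of the inhibitor list. The reported water-load fit was unpaired. Water-loaded and control libraries of the same number correlated in their deviations from the group means (0.244, 0.209, 0.227 and 0.313). The numbers were therefore taken as pairs in an alternative fit, on the data alone. The highest correlation with another number was 0.173, 0.188, 0.348 and 0.212, so number 3 had a better match elsewhere, and the best match was not the own number for control rat 3 and water-loaded rat 4. Alternatives were quantile normalization, a pseudocount of 0.1, testing without the filter, the number as a block, array weights, all transcripts, detected genes as a covariate, libraries with at least 2500 genes, the table without PA-seq, and leaving out replicates. Leaving out each library of SDL, LDLOM, tAL, DCT, CCD and IMCD in turn was added after seeing the data.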

Additional observations from a re-analysis of the deposited data

Results flagged for a closer look

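Of 116 groups of 4 to 10 libraries examined, 22 had 1 library set apart by a gap that was large against the range of its group. The rule flags about 1 in 20 groups of independent, normally distributed values. The groups here share libraries and hold RPKM or counts, so the number flagged cannot be set against that rate. Water-loaded rat 1 stood high in Top2a (12.2 RPKM) and Birc5 (35.6 RPKM), rat 2 in Kif2c (5.56 RPKM) and rat 4 in E2f1 (5.44 RPKM). Water-loaded rat 3 stood low in Mcm5 (4.11 RPKM) and Mcm6 (9.40 RPKM).

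Among controls, rat 3 stood high in Gins1 (1.36 RPKM), Asf1b (2.34 RPKM), Knstrn (3.83 RPKM), Kif11 (0.685 RPKM) and Kif2c (0.669 RPKM), and rat 2 in Prc1 (6.63 RPKM). Control rat 4 stood low in Cdca3 (0.197 RPKM).

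In the number of genes at 1 RPKM, water-loaded rat 4 stood low with 18 replication and 19 mitosis genes. The other water-loaded rats had 19 and 21 each. Where the other counts are equal, the rule flags even a difference of 1 gene. Control rat 3 stood high with 16 replication genes and control rat 4 low with 7 mitosis genes. Among segments, S3 replicate 3 stood high with 10 replication genes, LDLOM replicate 7 with 19 replication and 17 mitosis genes, and OMCD replicate 5 with 16 replication and 15 mitosis genes.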

How the results depend on the processing

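Under water load, the count of members called was 0 with a pseudocount of 0.1 or no filter, against 6 as reported (replication 0, mitosis 0, all genes 0) and to 3 with quantile normalization (replication 1). Array weights gave 4 mitosis members and 25 genes in all. Leaving out 1 rat gave 0 to 4 members, 0 to 2 of replication, 0 to 2 of mitosis and 0 to 7 genes in all. The Bub1 change ranged from -0.14 to 0.69 without 1 rat, and was -0.09 without control rat 3. Aqp2 was -1.14 to -0.81 without 1 rat, with p up to 0.0571, and 0 after quantile normalization, which gives the highest gene of every library the same value.

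With the rat number as a block, paired as described, 7 members and 29 genes passed. Among water-load members it changed no other call than that of Ccnb2. The replicate number of segments names no shared rat, and as a block it gave 6 members in the F test and 7 segment calls: 6 of the 9 were kept, 1 was added, and those ended were Ccne2 in tAL, Ccna2 in DCT and Ccnb1 in CCD.

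With a pseudocount of 0.1 the F test called 12 members and the segment contrasts 14. Without 1 library they called 3 to 8 and 7 to 11. For glomeruli, 18 members were called with detected genes as a covariate, 5 after quantile normalization, and 30 to 33 without 1 library. After quantile normalization the glomerulus difference was -0.092 for Ccne1, -0.28 for Ccne2, -0.19 for Tyms, -0.45 for Rrm2, -0.15 for Mki67, -0.35 for Aurka, -0.74 for Bub1, -0.30 for Kif11, -0.024 for Tpx2 and -0.15 for Mad2l1. The cause of these changes was not tested. The unknown read depth limits all values near 0, where single reads set the level.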

Other observations

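Levels of genes listed as cell cycle inhibitors and p53 targets varied along the tubule, and what these levels mean for the cycle was not tested. Of 18 tested cell cycle inhibitors and p53 targets, limma's F test called 13, against 41.5% of all genes. Btg2, an antiproliferative gene, had medians of 419 RPKM in LDLIM and 414 RPKM in IMCD, against 0.17 RPKM in S1 (adjusted p = 1.9e-14). Cdkn2b, the kinase inhibitor p15, had a median of 10.2 RPKM in IMCD and 0 in each of the other 13 segments (adjusted p = 3.7e-13). Gadd45g, a growth arrest gene, was highest in LDLIM, tAL and IMCD, at medians of 673, 443 and 400.2 RPKM (adjusted p = 1.1e-08). In glomeruli Cdkn1c, the kinase inhibitor p57 of podocytes, was at 76.9 to 228 RPKM.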
